A study of Mus musculus with 86 samples.

Results

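The 10 genes described here are marker and matrix genes of tendon and of cartilage-like tissue, taken as the rows for Scx, Mkx, Tnmd, Chad, Fmod, Kera, Comp, Thbs4, Cilp2 and Prg4 among the 42807 genes of an RNA-seq table. The table holds 86 libraries of whole muscle from male C57BL/6N mice aged 10 weeks, 43 from the gastrocnemius (GA, mostly fast fibres) and 43 from the soleus (SO, rich in slow fibres). In each muscle 8 groups received dexamethasone (DEX), a synthetic glucocorticoid, at 25 mg/kg by intraperitoneal injection on each of 10 days. Of these, 6 groups were also gavaged with Jakyak-gamcho-tang, an extract of peony root (Paeoniae radix) and liquorice root (Glycyrrhizae radix), as JGT02 (2:1), JGT03 (1:1) or JGT04 (1:2) at 100 or 400 mg/kg. A further group received resveratrol (RSV) at 200 mg/kg, and the DEX group received buffer by gavage. The non-treated (NT) group was injected and gavaged with buffer. There were 4 mice in the DEX group and in the group given JGT04 at 400 mg/kg, and 5 in each of the other 7. Extract and resveratrol were given in a cellulose vehicle, while buffer is stated for the DEX and NT mice. The labels call the DEX group vehicle (DEX) and do not say what the vehicle was. The effects of treatment and vehicle cannot be told apart.

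Tendon joins muscle to bone, and its cells reach into the muscle along the tendon sheets and at the ends of the fibres. Tendon cells are set up by the transcription factor scleraxis (Scx) and matured by Mohawk (Mkx), and they make tenomodulin (Tnmd) and a matrix of collagen held in order by small leucine-rich proteins and thrombospondins. Several of these matrix genes are also made by cartilage and by the lining of joints. In whole-muscle RNA fewer tendon cells and less RNA per cell cannot be told apart.

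Of the 10 genes, 6 have an entry in the RefSeq promoter table (build GRCm38.p6, 250 bases before to 50 after the start), namely Fmod, Cilp2, Kera, Chad, Thbs4 and Tnmd. The promoters of the 4 genes whose changes were among the largest are shown because these genes moved together in one or both muscles. Capitals mark the letters CANNTG, the core that basic helix-loop-helix factors such as scleraxis can bind. It reads the same on both strands.
Cilp2, chr8:69887343-69887642, minus strand: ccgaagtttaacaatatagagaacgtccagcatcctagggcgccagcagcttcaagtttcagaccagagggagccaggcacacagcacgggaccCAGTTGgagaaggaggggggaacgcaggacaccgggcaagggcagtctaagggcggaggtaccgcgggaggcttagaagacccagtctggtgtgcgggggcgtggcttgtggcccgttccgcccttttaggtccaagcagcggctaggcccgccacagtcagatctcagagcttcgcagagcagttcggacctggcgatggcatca
Kera, chr10:97606955-97607254, plus strand: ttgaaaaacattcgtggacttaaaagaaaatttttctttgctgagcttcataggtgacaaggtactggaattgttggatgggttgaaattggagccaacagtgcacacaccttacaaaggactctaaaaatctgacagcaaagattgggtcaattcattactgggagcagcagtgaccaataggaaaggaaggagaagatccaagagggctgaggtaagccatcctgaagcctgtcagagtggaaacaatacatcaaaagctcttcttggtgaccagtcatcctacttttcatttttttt
Chad, chr11:94564797-94565096, plus strand: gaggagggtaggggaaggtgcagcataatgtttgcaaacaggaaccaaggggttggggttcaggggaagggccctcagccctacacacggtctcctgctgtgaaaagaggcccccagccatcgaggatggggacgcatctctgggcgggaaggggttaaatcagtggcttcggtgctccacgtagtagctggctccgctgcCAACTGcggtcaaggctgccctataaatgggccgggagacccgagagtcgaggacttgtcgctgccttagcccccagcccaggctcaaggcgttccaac
Tnmd, chrX:133850758-133851057, plus strand: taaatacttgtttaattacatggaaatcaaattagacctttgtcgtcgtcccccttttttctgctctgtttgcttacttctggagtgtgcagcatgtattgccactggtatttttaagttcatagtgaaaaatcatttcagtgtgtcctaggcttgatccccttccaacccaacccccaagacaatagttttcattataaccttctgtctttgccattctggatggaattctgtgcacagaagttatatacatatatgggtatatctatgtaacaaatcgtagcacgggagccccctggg
CANNTG occurred 1 time in Cilp2, at base -156 from the start, and 1 time in Chad, at base -49, and it did not occur in the windows of Kera and Tnmd. It was found in 4 of the 6 windows, beside 72.3% of 32851 promoters of the same length. AGAACA, the core letters of a glucocorticoid receptor site, was searched on both strands and was in 0 of the 6 windows, beside 19.0% of all promoters. These matches describe letters only. For Kera and Cilp2 the whole window lies inside the span of the gene given below. The starts used for these windows thus lie downstream of the starts of those spans.

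On GRCm38 the transcription factor genes are Scx at chr15:76457452-76459458 (plus strand) and Mkx on chromosome 18 (minus strand). Among the others Tnmd lies at chrX:133850980-133865577, Chad at chr11:94565047-94569127, Fmod at chr1:134037254-134048277 and Kera at chr10:97606879-97613692, all on the plus strand. Comp lies at chr8:70373558-70382066 (plus), Cilp2 at chr8:69880369-69887687 (minus), Thbs4 at chr13:92751590-92794818 (minus) and Prg4 at chr1:150449412-150466165 (minus). Counts are over the exons of these genes.

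Total counts per library ran from 18751700 to 34626900. Values are CPM, counts scaled to a common library total that is adjusted by the TMM method. Differences are log2 fold changes ± standard error (SE) from the edgeR quasi-likelihood test, with p values adjusted by Benjamini-Hochberg over all genes tested. A gene is said to have risen or fallen where its adjusted p is under 0.05. All 10 genes passed the filter on low counts in both muscles. The fibre genes fitted the muscle labels in all but 3 libraries. Myh4, the fast myosin, was at 38213 to 54505 CPM in the other GA libraries, and Myh7, the slow myosin, at 4067 to 8931 CPM in the other SO libraries. The GA library of mouse 1 given JGT02 at 100 mg/kg and the SO library of mouse 5 of that group had 1167 and 1028 CPM of Myh3, a myosin of newly formed fibres, against at most 26.3 CPM in the other GA and 119 CPM in the other SO libraries. The SO library labelled mouse 1 of JGT02 at 400 mg/kg had 14 CPM of Myh7 and 25510 CPM of Myh4, which goes against its label. These 3 libraries stay in the fits unless stated, and results that rest on them are given with and without them. Libraries of a group are separate mice per the labels, and p values measure the spread between them.

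In NT mice all 10 genes were detected in both muscles. Per kilobase of exon, fibromodulin (Fmod), which binds collagen fibrils, had the highest mean level in NT GA, 66.3 ± 24.3 CPM per kb (SD, n = 5). Thrombospondin 4 (Thbs4), a matrix protein of tendon and of its junction with muscle, followed with 32.1 ± 9.27, and chondroadherin (Chad), a leucine-rich cartilage protein that binds collagen and integrins, with 13.7 ± 6.16 CPM per kb. Tnmd, keratocan (Kera) and Comp lay together at 5.10 ± 1.87, 4.29 ± 1.64 and 4.19 ± 1.87 CPM per kb, within each other's spread. Prg4, Cilp2 and Scx had 3.64 ± 1.13, 2.24 ± 0.848 and 2.12 ± 0.0775 CPM per kb, and Mkx was lowest with 0.324 ± 0.121. In NT SO the first places were shared by Thbs4 and Fmod, with 16.7 ± 7.07 and 16.6 ± 8.16 CPM per kb. Prg4 came next with 9.39 ± 6.91, and Scx with 6.07 ± 0.696 stood above Chad with 5.57 ± 2.87 CPM per kb, within the spread of Chad.

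Between the muscles of NT mice, SO had less of 4 matrix genes and more Scx, and a higher Prg4 that depended on the fit. In the fit of both muscles 4 members were lower in SO, namely Fmod by -2.0 ± 0.36 (log2, adjusted p = 2.52e-06), Kera by -1.61 ± 0.29 (4.6e-06), Chad by -1.30 ± 0.41 (0.00714) and Cilp2 by -1.13 ± 0.36 (0.00812). Scx was higher in SO by 1.52 ± 0.23 (4.09e-08) and Prg4 by 1.36 ± 0.54 (0.0314). These 6 of 10 stand beside 45.8% of the 15327 genes tested that differed between the muscles. With the 3 libraries that stand apart left out, 9 of 10 differed, beside 58.1% of genes. The listed order of samples falls into 3 parts, which the labels do not name. The NT libraries of GA lie in the first part and those of SO in the middle part. In NT mice the effects of order and muscle cannot be told apart. Scx had 11.3, 12.9, 14.3, 11.1 and 11.2 CPM in NT SO, against 4.19, 4.19, 4.38, 4.43 and 4.05 CPM in NT GA. The values did not overlap, but the share of all genes without overlap was not counted between the muscles. Scx was the steadiest member within each NT group. Prg4, which codes for lubricin, the lubricant of joint and tendon surfaces, had 8.98, 66.2, 66.6, 8.01 and 51.1 CPM in NT SO, against 7.44, 18.3, 18.2, 19.1 and 14.9 CPM in NT GA. Its SO values fell into 3 high and 2 low mice, and the ranges overlapped. The Prg4 call was lost with no filter on low counts (0.0545) and with each mouse as a block across muscles (0.99 ± 0.51, 0.121). It was also lost without any one of GA NT mice 1 and 5 or SO NT mice 2, 3 and 5 (0.0550 to 0.112).

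**Figure D1:**
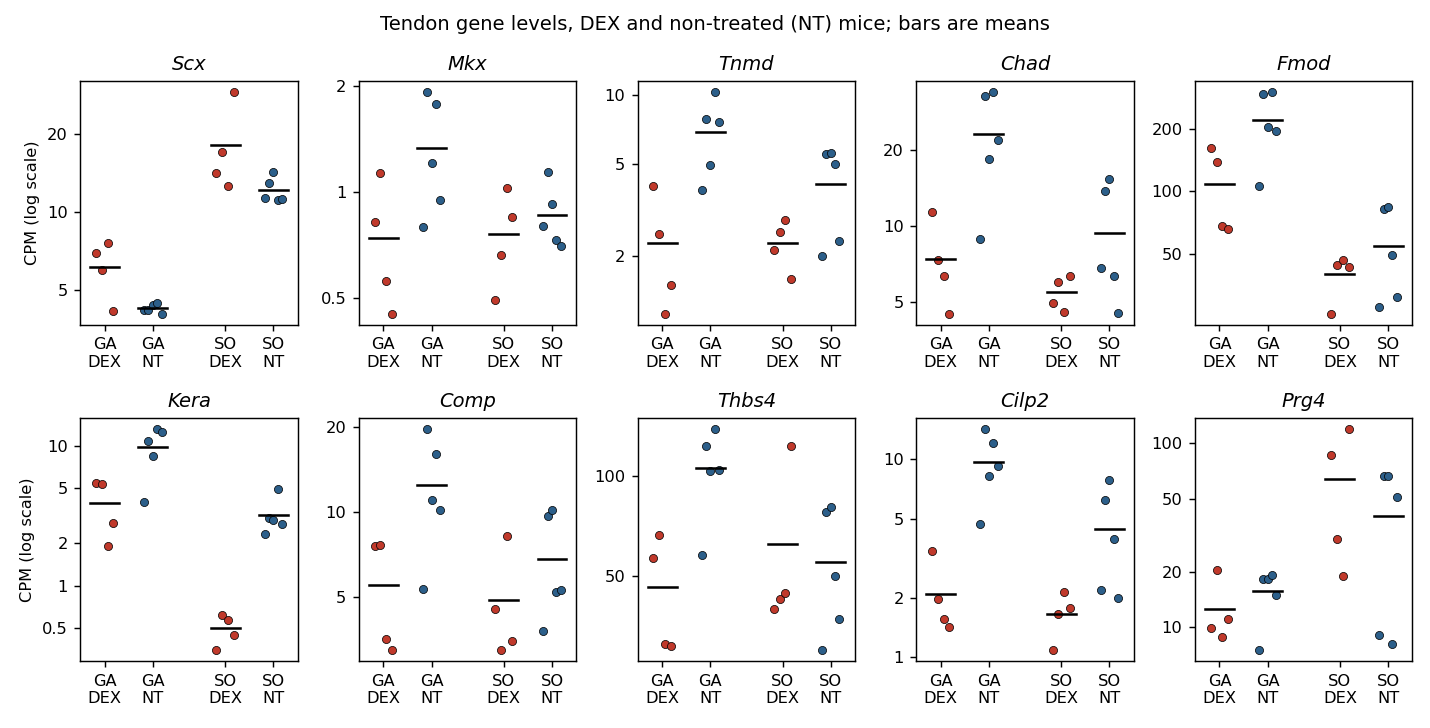
CPM (log scale) of the 10 genes in each library of DEX and NT mice, GA on the left and SO on the right of each panel; points are mice and bars are group means. Cilp2 in GA and Kera in SO are the genes whose DEX and NT points do not overlap, while in GA the NT points of Scx lie between 4.05 and 4.43 CPM.

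In GA most of the tendon matrix genes fell with DEX. Against NT, 6 of the 10 fell and 0 rose, beside 4.07% of the 14484 genes tested that fell and 4.31% that rose. The median log2 change of the 10 members was -1.20, beside -0.01 over all genes tested. The members were chosen with earlier results of these data known, so such medians and counts describe them and are not separate evidence. The members that fell were Cilp2, Chad, Tnmd, Kera, Fmod and Mkx. Without the 3 libraries that stand apart, Comp and Thbs4 also fell and Scx rose, so that 9 of 10 were called, beside 26.4% of genes. None of those libraries is a DEX or NT library. They enter these tests only through the shared estimate of spread.

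Cilp2 codes for a secreted protein related to the cartilage intermediate layer protein and showed the largest fall. It had 3.43, 1.97, 1.56 and 1.42 CPM in GA of DEX mice, against 4.70, 14.2, 8.19, 12.1 and 9.22 CPM in GA of NT mice. Every DEX library lay below every NT library. The change was -2.22 ± 0.31 (adjusted p = 3.49e-06). Without overlap between DEX and NT, 1 of 10 members was lower, beside 7.64% of genes tested.

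Chad and Tnmd fell by similar factors. Chad had 11.4, 7.36, 6.35 and 4.52 CPM in DEX GA, against 8.93, 32.6, 18.3, 33.7 and 21.9 CPM in NT GA. NT mouse 1 lay within the DEX range, and the other NT mice lay above all DEX mice. The fall of Chad was -1.66 ± 0.33 (0.000824). Tnmd, a membrane glycoprotein of mature tendon cells, had 4.00, 2.48, 1.12 and 1.49 CPM in DEX GA, against 3.87, 7.80, 4.95, 10.3 and 7.64 CPM in NT GA. Again only NT mouse 1 reached down to a DEX value, and the fall was -1.61 ± 0.37 (0.00346).

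Of the small leucine-rich proteoglycans, which bind collagen and space its fibrils, Kera had 5.40, 5.32, 1.92 and 2.81 CPM in DEX GA, against 3.97, 10.8, 8.42, 13.2 and 12.6 CPM in NT GA, a fall of -1.35 ± 0.34 (0.00764). Fmod had 161, 138, 68.3 and 65.7 CPM in DEX GA, against 105, 294, 202, 299 and 195 CPM in NT GA, a fall of -1.03 ± 0.29 (0.0177). For both genes NT mouse 1 lay within the DEX values. The fall of Kera was not called without DEX mouse 3 (adjusted p = 0.0510), and that of Fmod was not called without DEX mouse 3 (0.0986) or 4 (0.0903) or NT mouse 2 (0.0582) or 4 (0.0588).

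The thrombospondins gave falls that depended on the fit. Comp, the cartilage oligomeric matrix protein, had 7.54, 7.62, 3.56 and 3.23 CPM in DEX GA, against 5.35, 19.7, 11, 16.0 and 10.1 CPM in NT GA. The difference was -1.19 ± 0.41 (0.0609), and -1.19 ± 0.28 (0.00116) without the 3 libraries. Thbs4 had 56.7, 66.4, 31 and 30.7 CPM in DEX GA, against 57.7, 123, 104, 139 and 104 CPM in NT GA. For both genes NT mouse 1 lay within the DEX range and the other NT mice above it. The difference of Thbs4 was -1.21 ± 0.48 (0.123), and -1.20 ± 0.22 (4.71e-05) without the 3 libraries. Prg4 had 9.86, 20.3, 8.75 and 11 CPM in DEX GA, against 7.44 to 19.1 CPM in NT GA. DEX mouse 2 lay above the NT range and the others within it, and the difference of -0.34 ± 0.49 was not called (0.777).

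The 2 transcription factors did not move alike in GA. Mkx was the lowest member, with 0.822, 1.13, 0.559 and 0.452 CPM in DEX GA, against 0.795, 1.92, 1.21, 1.77 and 0.950 CPM in NT GA, and it fell by 0.85 ± 0.27 on the log2 scale (0.0407). The groups overlapped, with NT mice 2 to 4 above all DEX mice. That call was lost without any one of DEX mice 1, 3 and 4 or NT mice 2 and 4 (adjusted p 0.0672 to 0.169). Of its 31-base words 5.48% occur in other genes, so its counts are uncertain. Scx had 6.93, 5.98, 7.55 and 4.13 CPM in DEX GA, against NT values between 4.05 and 4.43 CPM. The first 3 DEX mice lay above all NT mice and DEX mouse 4 lay within them. The difference was 0.51 ± 0.27 (0.268) with all libraries and 0.52 ± 0.15 (0.0112) without the 3.

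**Figure D2:**
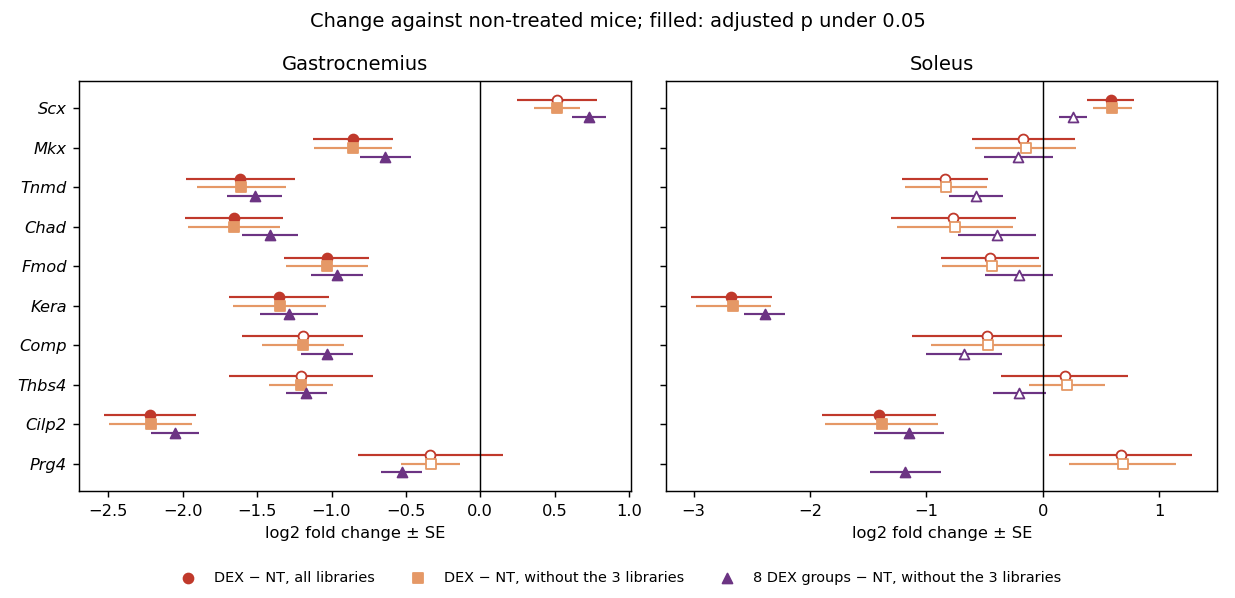
Log2 fold change ± SE of each gene against NT in GA and SO, for DEX mice with all libraries (circles), for DEX mice without the 3 libraries that stand apart (squares) and for the mean of the 8 DEX groups without those 3 (triangles); filled symbols have an adjusted p under 0.05. In GA 9 genes lie left of 0 and Scx lies right of it; in SO Kera lies farthest left, at -2.68 for DEX mice.

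The falls in GA were also seen in the mean of all groups that received DEX. Against NT, the mean of the 8 DEX groups was lower for 8 members and higher for 1, beside 10.9% of genes that fell and 10.3% that rose. These tests use the same NT and DEX libraries as the comparison above and are not independent of it. The GA libraries of RSV and of JGT04 at 400 mg/kg come in a later part of the listed order than those of NT. Order and treatment are confounded for these groups. Cilp2 had a lowest, median and highest value of 0.847, 2.33 and 4.16 CPM in the 38 DEX-treated GA libraries, against 4.70, 9.22 and 14.2 CPM in the 5 NT libraries. All 38 lay below the lowest NT mouse, and the mean change was -2.05 ± 0.17 (1.66e-11). Cilp2 was the 1 member without overlap, beside 1.33% of genes that were lower without overlap. Tnmd lay below all NT mice in 36 of 38 DEX-treated libraries and fell by -1.47 ± 0.22 (4.38e-06). Chad fell by -1.42 ± 0.20 (9.96e-07), Kera by -1.30 ± 0.21 (1.15e-05) and Fmod by -0.97 ± 0.18 (0.000116). Thbs4, Comp and Mkx fell by -0.96 ± 0.31 (0.0203), -0.92 ± 0.26 (0.00793) and -0.64 ± 0.18 (0.00746). These 3 calls were lost without NT mouse 2 (adjusted p 0.0664, 0.0968 and 0.102), and those of Thbs4 and Mkx also without NT mouse 4 (0.0885 and 0.0652). Prg4 fell as well once the 3 libraries were left out, by -0.53 ± 0.14 (0.00183), against -0.31 ± 0.34 (0.582) with all libraries.

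Scx rose in the same GA libraries in which the matrix genes fell. Its values in the DEX-treated libraries without the 3 ran from 4.13 over a median of 7.15 to 9.16 CPM, against 4.05, 4.19 and 4.43 CPM as the lowest, median and highest of NT. Of 37 such libraries 35 lay above the highest NT mouse. The mean change was 0.80 ± 0.20 (0.00319) with all libraries and 0.73 ± 0.11 (1.82e-06) without the 3. Scx (chr15:76457452-76459458, plus strand, GRCm38) lies within the span of Bop1, a ribosome assembly gene on the other strand, with no shared exon. In GA, Bop1 rose by 0.29 ± 0.05 (2.75e-05) in the 8 DEX groups. Within groups the correlation of Scx with Bop1 was 0.11 in GA (42 libraries) and 0.71 in SO (41 libraries). The library kit keeps strand, whether reads were counted by strand is not given in the sources used here, and the part of Bop1 reads in the Scx counts was not tested.

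In SO, Kera fell with DEX and so did Cilp2, less securely, while most other members were not called. Against NT 2 members fell and 1 rose, beside 9.47% of the 14811 genes tested that fell and 11.3% that rose. The median log2 difference of the members was -0.47, beside 0.05 over all genes. Kera had 0.345, 0.622, 0.572 and 0.442 CPM in DEX SO, against 2.33, 3.06, 2.96, 4.94 and 2.77 CPM in NT SO. The groups did not overlap, as in 14% of genes that were lower, and the fall was -2.68 ± 0.35 (1.95e-06). The lowest Kera value in SO, in a resveratrol library, rests on 4 counts. Cilp2 had 1.08, 1.66, 2.13 and 1.77 CPM in DEX SO, against 2.20, 6.24, 7.80, 3.95 and 1.99 CPM in NT SO. NT mice 1 to 4 lay above all DEX mice, mouse 1 by little, and mouse 5 lay within the DEX range. Its fall of -1.40 ± 0.49 (0.0379) was lost without any one of the 4 DEX mice or NT mouse 2 or 3 (adjusted p 0.0547 to 0.117).

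The rise of Scx in SO depended on single mice. Scx had 14.1, 17.0, 12.6 and 29.0 CPM in DEX SO, against 11.3, 12.9, 14.3, 11.1 and 11.2 CPM in NT SO. The difference was 0.58 ± 0.20 (0.0355), and 0.27 with an adjusted p of 0.379 without DEX mouse 4. It was also not called without NT mouse 1, 2, 4 or 5 (adjusted p 0.0535 to 0.0840). That library also had the highest Thbs4 of the DEX group, 123 CPM against 39.6 to 44.2 CPM in the other 3. It had the highest Prg4, 120 CPM, and a summed macrophage marker level of 297 CPM, against a group median of 45.7 CPM. The part of these cells in the values was not tested. Without the 3 libraries and DEX mouse 4 there were 2 calls in SO, Kera (-2.61 ± 0.36, 1.31e-06) and Cilp2 (-1.42 ± 0.54, 0.0387), beside 36.1% of genes.

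Over the 8 DEX groups of SO, Kera was again the clearest change, and 2 of 10 members fell, beside 8.78% of genes. Kera had 0.170, 0.597 and 2.26 CPM as the lowest, median and highest of the 36 DEX-treated SO libraries without those that stand apart, against 2.33, 2.96 and 4.94 CPM in NT SO. All 38 DEX-treated libraries lay below the lowest NT mouse, beside 0.547% of genes that were lower without overlap. The fall was -2.41 ± 0.19 (3.94e-12). Cilp2 fell by -1.16 ± 0.30 (0.00643), a call lost without NT mouse 3 (0.0859). Tnmd differed by -0.61 ± 0.24 (0.0725), Chad by -0.45 ± 0.36 (0.417) and Fmod by -0.20 ± 0.29 (0.693). Scx differed by 0.26 ± 0.15 (0.227), and 15 of 38 DEX-treated libraries lay above all NT mice, against 5 below. Prg4 fell by -1.18 ± 0.31 (0.00277) without the 3 libraries and differed by -0.98 ± 0.41 (0.0906) with them. The DEX group alone did not show this fall. Its Prg4 differed from NT by 0.68 ± 0.71 (0.490) with only DEX and NT mice in the fit. Without the 3 libraries and DEX mouse 4 the difference was 0.16 ± 0.48 (0.821). The SO libraries of JGT03, JGT04 and RSV, and some of JGT02 at 400 mg/kg, come in the last part of the listed order. Those of NT come in the middle part. With a term for this order and without the 3 libraries, fewer members were called against NT than in the main fit. For JGT03, JGT04 and RSV the effects of order and treatment cannot be told apart.

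The difference between the 2 muscles in the response to DEX was tested in the fit of all 86 libraries. With edgeR 0 of 10 members were called, beside 8.36% of genes, with 1 member at an unadjusted p under 0.05 (24.8% of genes) and 1 called by DESeq2 (11% of genes). Kera had the lowest adjusted p, with a difference of -1.34 ± 0.48 (SO minus GA, 0.067). It was called without the 3 libraries at -1.37 ± 0.50 (0.027), and so was Thbs4 at 1.35 ± 0.40 (0.00638), beside 33.6% of genes. Neither was called once SO DEX mouse 4 was also left out, beside 29.3% of genes. With each mouse as a block across muscles Kera differed by -1.29 ± 0.41 (0.0554), not called. For Chad the difference was 0.87 ± 0.63 (0.392) and for Tnmd 0.76 ± 0.51 (0.361), so the falls of these genes in GA are not shown to differ from their values in SO.

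Other genes of the same tissues had a smaller median change than the members. Members and lists were chosen with earlier results of these data known, so this comparison is a description. Of 32 further genes of tendon and fascia matrix, 2 fell and 2 rose in GA of DEX mice, beside 4.07% and 4.31% of genes. Without the 3 libraries that stand apart 17 fell and 2 rose, beside 26.4% of genes called. The median change was -0.42 in both fits. Decorin (Dcn) and osteoglycin (Ogn), both leucine-rich proteins of the collagen matrix, fell by -0.49 ± 0.13 (0.0127) and -0.41 ± 0.14 (0.0485). Tenascin X (Tnxb) rose by 0.35 ± 0.09 (0.0118) and the matrix protease Htra1 by 0.82 ± 0.14 (0.000179). Col1a1, which codes for a chain of type I collagen, had 75.9, 65.2, 42 and 66.5 CPM in DEX GA, against 150 to 249 CPM in NT GA. The groups did not overlap, and the same held for Col1a2 (49.1 to 90.9 CPM in DEX GA, against 144 to 251 CPM in NT GA) and Col3a1 (25.1 to 42.3 CPM in DEX GA, against 103 to 123 CPM in NT GA). In this comparison 7.64% of genes tested were lower without overlap. With all libraries Col1a1 differed by -1.67 ± 0.64 (0.102), Col1a2 by -1.44 ± 0.51 (0.0705) and Col3a1 by -1.70 ± 0.68 (0.124), not called. The changes were -1.67 ± 0.25 (1.81e-06), -1.44 ± 0.19 (2.41e-07) and -1.70 ± 0.21 (4.27e-08) without the 3 libraries. Over the 8 DEX groups 8 of the 32 fell, beside 10.9% of genes, and 24 without the 3 libraries, beside 42.7% of genes called. Among the 8 were the fibrillar collagen genes Col1a1 (-1.72 ± 0.38, 0.000712), Col1a2 (-1.37 ± 0.31, 0.000999) and Col3a1 (-1.68 ± 0.40, 0.00188). Of 8 cartilage genes tested in DEX against NT, Matn4, a matrilin, fell by -1.59 ± 0.24 (1.7e-05) and Col11a1 by -1.31 ± 0.35 (0.0139). Sox6, a transcription factor of cartilage that fast muscle fibres also use, rose by 0.69 ± 0.20 (0.0243). Of 20 genes of tendon transcription and TGF-beta signalling 3 rose, including the inhibitor Smad7 (0.55 ± 0.13, 0.00578). Of 9 genes of the junction of muscle and tendon 0 were called. Of the same lists, without the 3 libraries, 3 cartilage genes fell and 1 rose. Of the 20 genes of transcription and TGF-beta signalling 4 rose and 1 fell, and of the 9 junction genes 4 rose and 1 fell. These counts also stand beside 26.4% of genes called.

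In SO of DEX mice 1 of the 32 tendon and fascia genes was called, Tnxb with a rise of 0.83 ± 0.15 (0.000213). In that fit, with all libraries, 11.3% of genes rose and 9.47% fell. Among the 32, 6 rose and 3 fell without the 3 libraries, beside 43.2% of genes called. Over the 8 DEX groups of SO, in the same fit, 2 rose and 11 fell, beside 34.4% of genes called. Smad3, which carries the TGF-beta signal, fell by -1.10 ± 0.14 (1.81e-06), and its response was lower in SO than in GA by -1.24 ± 0.19 (1.21e-05). Ankrd1, a stretch-responsive gene of fibre ends, had 91.7, 22.5, 16.2 and 633 CPM in DEX SO, against 10.2, 41.7, 39.6, 14.4 and 20.5 CPM in NT SO. Its rise of 2.92 ± 0.67 (0.00264) rested on DEX mouse 4. Without that mouse and the 3 libraries the difference was 0.78 ± 0.46 (0.184). Of 10 cartilage genes 1 was called, Col9a3 with a rise of 1.19 ± 0.40 (0.0335). Its level was near the floor, with 0.331 to 0.534 CPM in DEX SO, against 0.0366 to 0.320 CPM in NT SO.

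Markers of several other cell types moved with the same groups. With all libraries 4.31% of genes rose and 4.07% fell in GA, and 11.3% rose and 9.47% fell in SO. In GA 5 of 6 adipocyte markers rose, and their summed level was 140 to 182 CPM in DEX against 36.3 to 87.0 CPM in NT. Of 10 markers of fascia fibroblasts 1 fell, with sums of 177 to 210 CPM in DEX against 205 to 256 CPM in NT. Of 10 muscle fibre genes 0 were called in either muscle. In SO 6 of 6 adipocyte markers rose, with sums of 129 to 518 CPM in DEX against 9.42 to 95.6 CPM in NT. All 8 Schwann cell markers rose in SO, with sums of 99.2 to 846 CPM in DEX against 114 to 199 CPM in NT, and 0 of 8 were called in GA. In the fits without the 3 libraries all 6 adipocyte markers rose in GA, and 2 fibroblast markers rose and 2 fell there. In these fits 1 Schwann cell marker fell in GA, and 1 muscle fibre gene fell in each muscle. Of 8 endothelial markers 5 fell in GA, and 8 over the 8 DEX groups, while 6 rose in SO. Over the 8 DEX groups of SO 1 endothelial marker rose and 1 fell, and 3 of 8 Schwann cell markers rose and 0 fell. Of 6 smooth muscle markers 1 fell in GA and 5 rose in SO. Of 5 macrophage markers 0 were called in GA and 3 rose in SO, but 0 without SO DEX mouse 4. These counts stand beside 26.4% of genes called in GA (42.7% over the 8 DEX groups). In SO the shares were 43.2%, 34.4% over the 8 DEX groups, and 36.1% without DEX mouse 4. No marker of these lists was at 0 in any library. The part of these cells in the tendon gene values was not tested.

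No tendon gene of GA was called against DEX in 6 of the 7 treatments. With edgeR 0 of 10 members were called in those 6, with 0 at an unadjusted p under 0.05 and 0 called by DESeq2. For Prg4 in GA, DESeq2 gave no p against NT or for JGT02 at 100 mg/kg against DEX. Its counts in GA may thus not cover Prg4. The share of all genes called was 0.808% for JGT02 at 400 mg/kg, 0.0207% and 0.677% for JGT03 at 100 and 400 mg/kg, 1.38% and 2.04% for JGT04 at 100 and 400 mg/kg, and 1.37% for RSV. In the same order 9.38%, 5.35%, 10.4%, 11.8%, 12.5% and 11.1% of genes had an unadjusted p under 0.05, and DESeq2 called 1.16%, 0.0829%, 1.12%, 2.26%, 2.75% and 2.08%. Cilp2 averaged 1.67 ± 0.655 to 2.84 ± 0.469 CPM over the 7 treated groups, against 2.10 ± 0.920 CPM in DEX and 9.68 ± 3.66 CPM in NT. Every treated mean lay within the spread of the DEX group. The mean of the 6 extract groups differed from DEX by 0.19 for Cilp2, with a 95% interval from -0.29 to 0.67, and by 0.27 for Chad, with an interval from -0.25 to 0.78. Their falls from NT, of -2.22 and -1.66, lie outside these intervals in size. For that mean 0 members were called by edgeR or DESeq2, beside 1.26% and 1.81% of genes, with 0 at an unadjusted p under 0.05 (12.1% of genes).

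JGT02 at 100 mg/kg was the exception in GA, and its calls were lost without mouse 1. Thbs4 (2.04 ± 0.50, 0.0148), Prg4 (1.77 ± 0.50, 0.025) and Scx (1.05 ± 0.27, 0.0161) rose against DEX, beside 8.72% of genes that rose. Thbs4 had 651 CPM in mouse 1 and 49.9 to 68.3 CPM in the other 4 mice of the group, against 30.7 to 66.4 CPM in DEX. Prg4 had 148 CPM in mouse 1 and 11.3 to 13.2 CPM in the others, against 8.75 to 20.3 CPM in DEX. Scx had 27.8 CPM in mouse 1 and 6.51 to 9.16 CPM in the others, against 4.13 to 7.55 CPM in DEX. Without mouse 1 and the other 2 libraries 0 members were called, beside 0.963% of genes. Thbs4 then differed by 0.34 ± 0.23 (0.537), Scx by 0.41 ± 0.16 (0.197) and Prg4 by -0.02 ± 0.21 (0.983). Mouse 1 had 1556 CPM of Col1a1 and 9599 CPM of the muscle actin Acta1, against at most 249 CPM and at least 29114 CPM in the other GA libraries. In the same library Chad, Fmod, Kera and Cilp2, with 7.24, 124, 3.66 and 2.55 CPM, stayed within the range of the other DEX-treated mice, while Tnmd, with 6.50 CPM, lay above it. The SO library of mouse 5 of that group, also rich in Myh3, paired 683 CPM of Thbs4, 40.4 CPM of Comp and 172 CPM of Prg4 with 1.22 CPM of Chad, the lowest Chad value in SO.

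**Figure D3:**
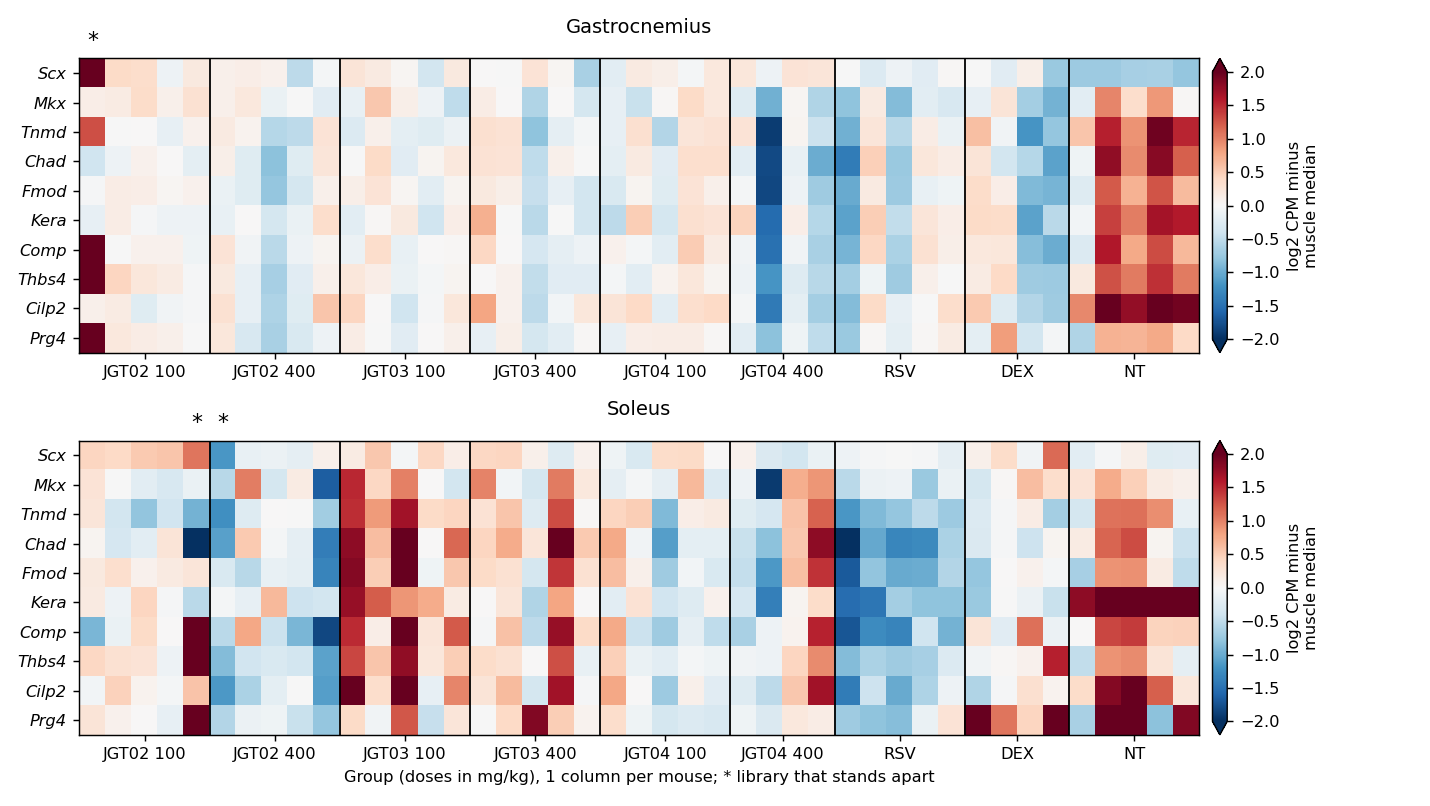
Log2 CPM of each gene minus its median over the libraries of that muscle, 1 column per mouse, with groups in the order of the extracts, RSV, DEX and NT; asterisks mark the 3 libraries that stand apart, and colours end at -2 and 2. In GA the NT columns of mice 2 to 5 are high for most genes and low for Scx; in SO single mice of JGT03 and JGT04 groups are high, and the 5 RSV mice are low.

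In SO, several matrix genes were higher with JGT03 at 100 mg/kg than with DEX alone. Against DEX 5 members rose, beside 3.42% of genes that rose, and 0 fell, beside 5.07%. They were Chad (1.78 ± 0.55, 0.0359), Cilp2 (1.51 ± 0.49, 0.0475), Kera (1.46 ± 0.34, 0.00637), Fmod (1.42 ± 0.44, 0.0352) and Tnmd (1.27 ± 0.37, 0.0267). Chad had 21.4, 9.42, 43.2, 6.12 and 13.7 CPM in this group, against 4.98, 6.01, 4.57 and 6.33 CPM in DEX. Fmod had 158, 62.1, 210, 41.7 and 64.2 CPM, against 25.8, 44.2, 46.7 and 43.2 CPM in DEX. Tnmd had 7.31, 4.73, 8.38, 3.36 and 3.49 CPM, against 2.12, 2.53, 2.86 and 1.58 CPM in DEX. Tnmd did not overlap between the groups, but the share of all genes without overlap was not counted here. Chad and Fmod overlapped through mouse 4, and mice 1 and 3 were highest for all 3 genes. Kera had 2.26, 1.55, 1.22, 1.09 and 0.707 CPM, above the DEX values of 0.345 to 0.622 CPM and below the lowest NT value of 2.33 CPM.

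Most of these calls were lost when any one of several mice was left out. Mice 1 and 3 of the group had the highest levels. Over the 8 members other than Scx and Prg4, their median level was 3.28 and 4.09 times the SO median, against 0.787 to 1.08 times in the 4 DEX mice. Leaving out mouse 1 or mouse 3 left 1 call, and so did leaving out DEX mouse 1 or 4. Leaving out DEX mouse 2 or 3 left 2 calls. The Kera call held under each of these. Chad differed by 1.73 (0.0689) without mouse 1, by 1.19 (0.168) without mouse 3, and by 1.69 to 1.85 (0.0610 to 0.0987) without any one DEX mouse. With only these 2 groups in the fit Kera and Tnmd were called, beside 8.14% of genes. With the 3 libraries left out 5 members rose and Prg4 fell, beside 30% of genes called. The JGT03 libraries of SO come in the last part of the listed order of samples and the DEX and NT libraries in the middle part. Without the 3 libraries, a term for this order, which is not in the labels, left 0 of the 5 calls, beside 0% of genes. In SO only JGT02 at 400 mg/kg has libraries in both parts, so the term rests on that group. The effects of order and treatment cannot be told apart here. In the same comparison with all libraries 7 of 8 Schwann cell markers were lower, beside 5.07% of genes. Their sums were 95.3 to 151 CPM in JGT03 at 100 mg/kg against 99.2 to 846 CPM in DEX. Their part in the result was not tested.

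At 400 mg/kg JGT03 gave 0 calls in SO with edgeR and DESeq2, beside 3.06% and 5.04% of genes, with 2 members at an unadjusted p under 0.05 (21.3% of genes). Chad differed by 1.18 ± 0.54 (0.2), with 27.3 CPM in mouse 4 and 7.28 to 10.3 CPM in the other mice. A mouse of similar kind stood in the group of JGT04 at 400 mg/kg, where mouse 4 had 21.3 CPM of Chad, 120 CPM of Fmod and 5.91 CPM of Tnmd. That group also had 0 calls with edgeR, beside 4.58% of genes, with 2 members at an unadjusted p under 0.05 (20.2% of genes) and 1 called by DESeq2 (5.8%). In these 2 mice the 8 members stood at a median of 2.60 and 2.51 times the SO median, and all 8 were above it. JGT02 at 100 mg/kg had 0 calls with edgeR, beside 8.82% of genes, with 1 member at an unadjusted p under 0.05 (23.8% of genes) and 1 called by DESeq2 (9.35%).

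**Figure D4:**
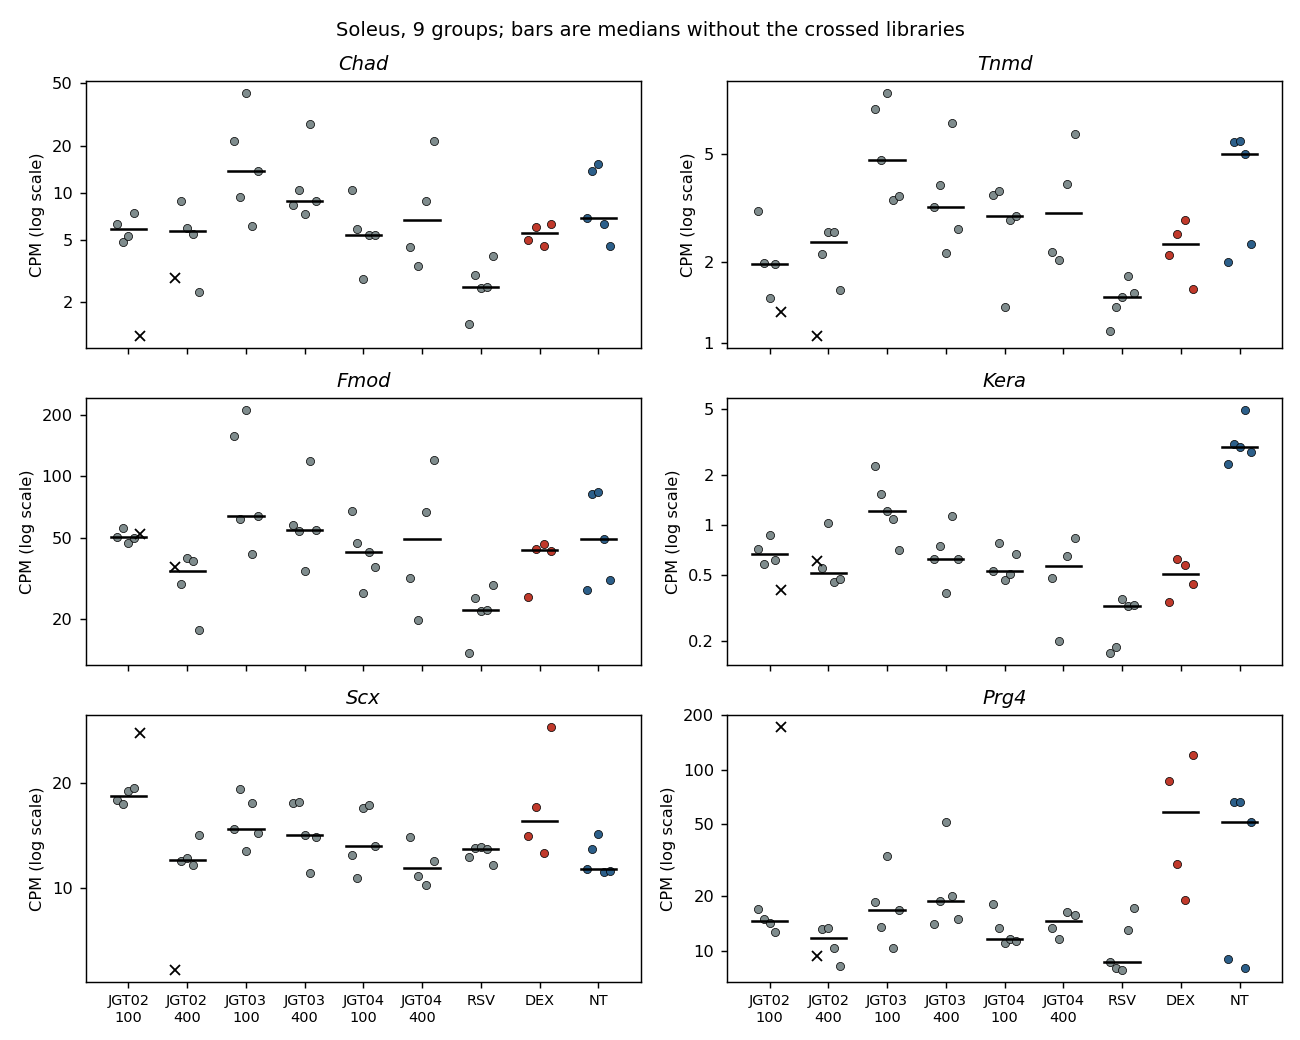
CPM (log scale) in the 9 SO groups for Chad, Tnmd, Fmod, Kera, Scx and Prg4; points are mice, bars are group medians and crosses are the libraries that stand apart, which the medians leave out. Kera of NT lies above all other mice, and Prg4 is above 60 CPM in 2 DEX and 2 NT mice and in 1 crossed library.

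Prg4 was lower in several treated SO groups than in DEX, where it varied widely. It had 86.2, 30.0, 19.0 and 120 CPM in DEX SO. Group medians without the libraries that stand apart were 14.6 and 11.7 CPM for JGT02, 16.8 and 18.7 CPM for JGT03, and 11.7 and 14.6 CPM for JGT04, at 100 and 400 mg/kg in each pair, and 8.63 CPM for RSV. The DEX median was 58.1 CPM and that of NT was 51.1 CPM. Against DEX, Prg4 fell with JGT02 at 400 mg/kg (-2.55 ± 0.64, 0.00659), JGT04 at 100 mg/kg (-2.29 ± 0.64, 0.0209) and RSV (-2.54 ± 0.64, 0.00861). It was also lower in the mean of the 6 extract groups (-1.78 ± 0.43, 0.00459). For JGT04 at 100 mg/kg and RSV it was the single call, beside 8.95% and 12.7% of genes, and for the extract mean the single call beside 13.9%. Without DEX mouse 4 the adjusted p was 0.130 for JGT04 at 100 mg/kg, 0.0646 for RSV and 0.133 for the extract mean. With the 3 libraries also left out it was 0.00896, 0.00297 and 0.00199. The SO libraries of JGT04 at 100 mg/kg and of RSV come in the last part of the listed order, apart from those of DEX. With the term for this order and without the 3 libraries, Prg4 differed by -1.82 ± 0.91 (0.423) for JGT04 at 100 mg/kg, by -2.06 ± 0.91 (0.447) for RSV and by -1.70 ± 0.69 (0.171) for the extract mean. With it 0 members were called in these comparisons, beside 0.0136%, 0.0136% and 1.32% of genes. Prg4 was still called for JGT02 at 400 mg/kg, at -2.30 ± 0.69 (0.0240). That is the only SO group with libraries in both the middle and the last part. For JGT04 at 100 mg/kg and RSV the effects of order and treatment cannot be told apart. The call for JGT04 at 100 mg/kg was also lost without mouse 4 (0.0519) or mouse 5 (0.0511) of that group. JGT02 at 400 mg/kg had Scx as its second call, -0.71 ± 0.20 (0.014), beside 17.1% of genes, and this was lost without DEX mouse 4 (0.191) or JGT02 mouse 1 (0.0550).

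Resveratrol gave the lowest SO group means of Chad, Fmod and Kera. Chad had 1.45, 2.48 and 3.93 CPM as the lowest, median and highest of the 5 RSV mice. In the 4 DEX mice these were 4.57, 5.50 and 6.33 CPM. The groups did not overlap, but the share of all genes without overlap was not counted here. The difference was -1.04 ± 0.55 (0.2), not called. Fmod had 13.8, 22.2 and 29.3 CPM with RSV, against 25.8, 43.7 and 46.7 CPM in DEX, with some overlap, and differed by -0.83 ± 0.42 (0.183). With only RSV and DEX mice in the fit both genes were called, Chad at -1.05 ± 0.24 (0.0198) and Fmod at -0.84 ± 0.22 (0.0284). Comp, Thbs4 and Prg4 were called there too, 5 of the 9 members tested, beside 16.7% of genes. With the term for the listed order 0 were called. The RSV and DEX libraries lie in different parts of it, so order and treatment cannot be told apart. In all 5 RSV mice 0 of the 8 members other than Scx and Prg4 exceeded the SO median. The median difference of all 10 members from DEX was -0.84, beside -0.03 over all genes. Without the 3 libraries Comp (-1.43 ± 0.53, 0.0325), Thbs4 (-1.21 ± 0.33, 0.00435) and Scx (-0.55 ± 0.17, 0.0103) also fell, 4 of 10 with Prg4, beside 36.7% of genes. With DEX mouse 4 also left out the calls were Prg4 and Comp (-1.56 ± 0.57, 0.0439), beside 23.7%.

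Dose made no called difference. Between 400 and 100 mg/kg, averaged over the 3 extracts, 0 members were called in GA or SO by edgeR or DESeq2. The share of genes called was 0.2% by edgeR and 0.815% by DESeq2 in GA, and 0% by both in SO. In GA 4 and in SO 2 members had an unadjusted p under 0.05, beside 14.7% and 13.5% of genes. An F test between the extract groups called 0 members in GA, beside 0.753% of genes, with 2 at an unadjusted p under 0.05 (17.8% of genes) and 0 called by DESeq2 (1.24%). In SO it called 5, beside 12% of genes, namely Tnmd (adjusted p = 0.00442), Chad (0.00624), Cilp2 (0.0239), Kera (0.0265) and Fmod (0.0299). When the 3 libraries were left out, Comp (0.0185) and Thbs4 (0.0164) were also called, which made 7 beside 22.4% of genes. With the term for the listed order as well, the calls were Chad, Comp and Kera, beside 5.63%. Most JGT02 libraries lie in another part of it than those of JGT03 and JGT04, so order and extract are confounded there. Leaving out mouse 1 of JGT03 at 100 mg/kg or mouse 4 of JGT03 at 400 mg/kg left 2 calls. Mean Chad in SO was 5.96 ± 1.12 and 5.63 ± 2.67 CPM for JGT02 without the libraries that stand apart, 18.8 ± 14.8 and 12.4 ± 8.40 CPM for JGT03, and 5.94 ± 2.75 and 9.51 ± 8.19 CPM for JGT04, at 100 and 400 mg/kg in each pair. The SDs of the JGT03 groups exceeded the distance between most of these means.

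The members varied more from mouse to mouse than the median gene. The within-group SD of log2 CPM, without the 3 libraries, ran from 0.24 (Scx) to 0.54 (Kera) in GA, beside a median of 0.14 over all genes tested. In SO it ran from 0.25 (Scx) to 0.79 (Prg4), beside 0.18. For Scx 71.5% of genes in GA and 65.6% in SO had a smaller SD, and for the other 9 members 82.0% to 96.1% in GA and 87.2% to 97.6% in SO. Beside genes of like level the margin was small for Mkx in GA (0.38, beside 0.34) and Kera in SO (0.46, beside 0.40). Among 8 of the members part of this variation was shared. Over the 28 pairs among the 8 members other than Scx and Prg4, the median within-group Pearson correlation was 0.85 in GA (0.55 to 0.94, 42 libraries) and 0.65 in SO (0.35 to 0.96, 41 libraries). Scx did not follow the others, with a median correlation of 0.14 in GA and -0.21 in SO. Prg4 stood between, with 0.67 in GA and 0.28 in SO. Over all 45 pairs the median was 0.80 in GA and 0.55 in SO. All libraries of a muscle share its dissection and total-scaled counts, so these correlations describe the samples and carry no p.

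**Figure D5:**
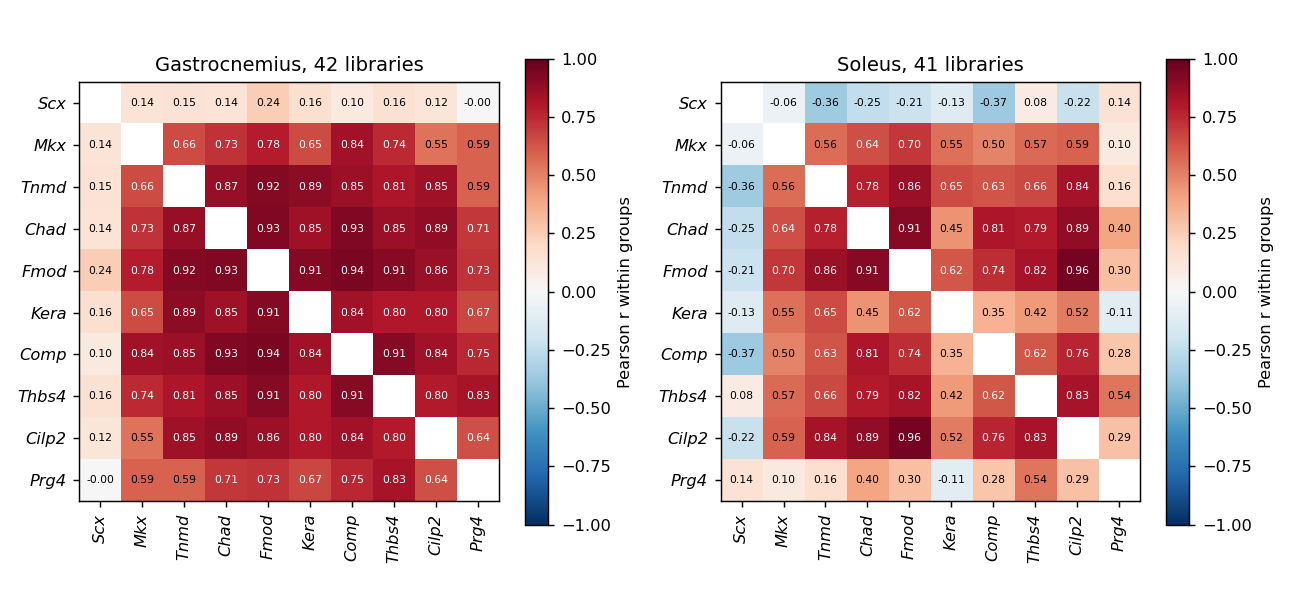
Pearson correlation of log2 CPM between each pair of genes, within groups, without the 3 libraries that stand apart, in GA and SO; the colour runs from -1 to 1. The row of Scx is pale in GA (-0.00 to 0.24) and mostly blue in SO (-0.37 to 0.14), beside red among the matrix genes.

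Single mice had high or low values of most of the 8 genes. In GA, mouse 2 of JGT04 at 400 mg/kg had the lowest median ratio to the muscle median, 0.341, with 2.66 CPM of Chad, 35.4 CPM of Fmod and 0.645 CPM of Tnmd. NT mice 2 to 5 of GA stood at 1.91 to 2.97 times the GA median and NT mouse 1 at 0.951 times. The 4 GA DEX mice had 1.24, 1.14, 0.574 and 0.548 times.

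The genes whose levels followed the mean standardised level of the members most closely were chosen by correlation over the libraries without the 3, over all groups. In GA they were Abi3bp (r = 0.94), Itgbl1 (0.93), Wif1 (0.92), Col12a1 (0.91) and Col11a1 (0.90), over 42 libraries. In SO they were Itgbl1 (0.86), Cpxm2 (0.86), Col11a2 (0.85), Col8a2 (0.84) and Col11a1 (0.84), over 41 libraries. Wif1 codes for a secreted Wnt inhibitor, and the collagens among them code for chains of types XI, XII and VIII. In GA of DEX mice Abi3bp fell by -0.61 ± 0.14 (0.00294), Itgbl1 by -0.97 ± 0.24 (0.00849) and Wif1 by -1.46 ± 0.39 (0.0135). Col12a1 differed by -0.55 ± 0.53 (0.615). Since the group means entered the choice of these genes, their changes are a description and not separate evidence.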

How the data were processed

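RNA of 86 muscle libraries was extracted with TRIzol, made into strand-specific libraries with an MGIEasy kit and sequenced as paired reads, per the labels' protocols. The table holds the authors' expected counts, 1 row a gene. The submitters' processing notes list RSEM 1.3.3 and STAR 2.7.3a, with Trim Galore 0.6.5, FastQC 0.11.9 and the build GRCm38. Neither the gene annotation nor the strand option or filters are given in the sources used here. Per the labels all samples are 1 batch, and the protocol names 5 groups where the samples form 9 per muscle.

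Expected counts were rounded and tested with edgeR 4.0.16 in R 4.3.3. The filterByExpr function left 14484 genes for GA, 14811 for SO and 15327 for both muscles together. A quasi-likelihood model with TMM scaling was fitted once per muscle over its 9 groups, and once over all 86 libraries. Log2 CPM used a prior count of 2. Tables and figures were made in Python 3.11.15 (matplotlib 3.10.9, scipy 1.17.1, numpy 2.4.6, pandas 2.3.3). Models were checked on simulated data. Other settings tried were no filter on low counts, DESeq2 1.42.0 or only its size factors, fitting just the groups compared, a block for mouse number, leaving out each library, and leaving out the 3 libraries that stand apart, alone or with a term for the listed order. Fits that also leave out SO DEX mouse 4, and counts over the gene lists without the 3 libraries, were added after the data were seen. Mice of the same number did not deviate together (median correlation 0.0028 in GA, 0.0014 in SO).

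The members, the lists and the naming rule were chosen with earlier results of these data known. The 10 members are named in every comparison. Up to 3 called genes with the largest change per list and direction could be named. The 5 genes per muscle most like the members were named too. Genes of single samples and Bop1 were named after their values were seen. Positions are from GENCODE vM21 on GRCm38. Exons of Prg4 overlap those of Tpr on the other strand, and exons of Mkx overlap AC148004.2.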

Additional observations from a re-analysis of the deposited data

Results flagged for a closer look

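Within groups of 4 or 5 mice, 21 values lay far from the others of their group (Dixon's test at 95%, which flags about 1 in 20 groups by chance), of 180 groups tested. Of these, 10 are in the 3 libraries that stand apart.

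In GA of JGT02 at 100 mg/kg, mouse 1 had 27.8 CPM of Scx (others 6.51 to 9.16), 6.50 CPM of Tnmd (2.32 to 2.78), 31.3 CPM of Comp (6.08 to 6.84), 651 CPM of Thbs4 (49.9 to 68.3) and 148 CPM of Prg4 (11.3 to 13.2). In SO of that dose, mouse 5 had 27.8 CPM of Scx (17.4 to 19.3), 1.22 CPM of Chad (4.83 to 7.36), 683 CPM of Thbs4 (38.8 to 55.4) and 172 CPM of Prg4 (12.6 to 16.9). The SO library labelled mouse 1 of JGT02 at 400 mg/kg had 5.82 CPM of Scx (11.6 to 14.2).

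In the other GA libraries, Scx was 4.83 CPM in mouse 4 of JGT02 at 400 mg/kg (6.79 to 7.70) and 6.53 CPM in mouse 2 of JGT04 at 400 mg/kg (8.21 to 8.45). Cilp2 was 2.03 CPM in mouse 3 of JGT04 at 100 mg/kg (2.86 to 3.16), and Prg4 was 7.44 CPM in NT mouse 1 (14.9 to 19.1).

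In the other SO libraries, DEX mouse 1 had 25.8 CPM of Fmod (43.2 to 46.7) and DEX mouse 4 had 123 CPM of Thbs4 (39.6 to 44.2). With JGT03 at 400 mg/kg, mouse 4 had 27.3 CPM of Chad (7.28 to 10.3) and mouse 3 had 51.1 CPM of Prg4 (14.1 to 20.0). With JGT04 at 100 mg/kg, Thbs4 was 58.0 CPM in mouse 1 (36.2 to 40.4), Tnmd 1.36 CPM in mouse 3 (2.84 to 3.66) and Mkx 1.06 CPM in mouse 4 (0.525 to 0.626).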

How the results depend on the processing

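The number of tendon genes called moved with the processing in both muscles. GA DEX against NT had 5 with no filter on low counts (Mkx lost), 7 with DESeq2 (Comp gained), 8 with only the groups compared (Scx, Comp and Thbs4 gained, Mkx lost) and 9 without the 3 libraries that stand apart. For GA JGT02 at 100 mg/kg against DEX 0 members were called with only the groups compared, with the mouse number as a block, without the 3 libraries that stand apart, and with a term for the listed order added. Prg4 there changed sign to -0.021 (adjusted p = 0.983) without the 3 libraries, with or without the order term, and without mouse 1 alone. With no filter on low counts, SO DEX against NT had 1 call and SO JGT03 at 100 mg/kg 2. With only the groups compared, SO JGT02 at 400 mg/kg had 1, SO JGT03 at 100 mg/kg 2, SO RSV 5 and the test between SO extracts 2. With DESeq2, SO JGT02 at 100 mg/kg, SO JGT04 at 400 mg/kg and the difference between muscles had 1 each. Without the 3 libraries there were 1 for SO JGT02 at 100 mg/kg, 1 for SO JGT03 at 400 mg/kg, 2 for SO JGT04 at 400 mg/kg, 4 for SO RSV, 2 for the mean of the SO extracts, 7 between SO extracts, 2 for the difference between muscles and 9 for NT SO against GA. Leaving out SO DEX mouse 4 as well, chosen after seeing the data, gave 1, 1, 1 and 2 for SO JGT02 at 100 and 400 mg/kg, JGT04 at 400 mg/kg and RSV. With the order term and without the 3 libraries there were 1 for the 8 DEX groups of SO against NT, 1 for SO JGT02 at 100 and 1 at 400 mg/kg, 0 for SO JGT03 at 100 mg/kg, JGT04 at 100 mg/kg, RSV and the mean of the extracts, 3 between SO extracts and 2 for the difference between muscles. The share of all genes called moved with the processing as well. Without the 3 libraries it was 36.7% for SO RSV, 22.4% between SO extracts and 33.6% for the difference between muscles. With all libraries these were 12.7%, 12% and 8.36%. With the order term it was 0% for SO JGT03 at 100 mg/kg, 0.0136% for SO RSV and 5.63% between SO extracts. For settings without a share here or above, none is given. The causes were not tested.

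Leaving out each library in turn gave 3 to 7 calls for GA DEX against NT, 6 to 10 for the 8 DEX groups of GA, 0 to 4 for GA JGT02 at 100 mg/kg, 0 to 2 between GA extracts and 0 to 0 in the other GA comparisons. In SO it gave 1 to 3 for DEX against NT, 1 to 4 for the 8 DEX groups, 0 to 1 for JGT02 at 100 mg/kg, 1 to 2 at 400 mg/kg, 1 to 5 for JGT03 at 100 mg/kg, 0 to 0 at 400 mg/kg, 0 to 1 for JGT04 at 100 mg/kg and 0 to 2 at 400 mg/kg. It gave 0 to 2 for SO RSV and for the mean of the SO extracts, 0 to 0 for the SO dose, 2 to 7 between SO extracts, 5 to 7 for NT SO against GA and 0 to 1 for the difference between muscles. Prg4 in GA JGT02 at 100 mg/kg ran from -0.021 to 2.11. The shares of all genes called in these fits are not given here.

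Same-numbered mice of different groups share only a number. Within a group the labels give the same mouse numbers for both muscles, and the main fit over both muscles does not pair them. Of 40 GA libraries 11 had their best match in SO at the same mouse number. With the mouse number as a block, GA DEX against NT had 7 calls and SO DEX against NT 3. With each mouse as a block across muscles, NT SO against GA had 6, with Tnmd (0.0231) in place of Prg4 (0.121). Mkx and Kera rest on few counts in SO, down to 3 and 4 in a library, which limits their precision there.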
